A study of Homo sapiens with 24 samples.

Results

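The NME genes encode nucleoside diphosphate kinases and their relatives. Of the 60236 Ensembl genes in the count table, the 8 members examined here were NME1, NME2, NME3, NME4, NME5, NME6, NME7 and NME9, taken by symbol, and each symbol matched 1 gene. Their mRNAs were measured in 24 RNA-seq libraries from 2 established lines, HEK293T (human embryonic kidney) and A549 (human lung adenocarcinoma). Each line received 1 of 4 plasmids with Lipofectamine 3000 and was collected 48 h later, with 3 biological replicates in each of the 8 groups. The snaR-A plasmid drives this small noncoding RNA from a U6 promoter, and its control carries a scrambled sequence behind the same promoter. The SF3B2 plasmid expresses a FLAG-tagged splicing factor of the U2 snRNP from pcDNA3.1, and its control expresses FLAG-tagged eGFP from the same backbone. Against scramble, SF3B2 and eGFP therefore differ in promoter and backbone as well as in the expressed product, and these cannot be told apart.

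Nucleoside diphosphate kinases move the terminal phosphate of ATP onto other nucleoside diphosphates through a phosphorylated active-site histidine, and so keep the pools of GTP, CTP, UTP and the dNTPs filled. NME1 and NME2 are the abundant cytosolic and nuclear enzymes, which assemble into mixed hexamers, and NME1 was the first gene described as a suppressor of metastasis. NME3 sits at the mitochondrial outer membrane, NME4 is imported into mitochondria and NME6 is mitochondrial as well. NME7 belongs to the γ-tubulin ring complex, which nucleates microtubules, NME5 to the radial spokes of motile cilia, and NME9 joins a thioredoxin domain to a kinase domain.

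NME1 (ENSG00000239672, plus strand, chr17:51153559-51162428 of GRCh38 in GENCODE 44) and NME2 (ENSG00000243678, plus strand, chr17:51165435-51171744) are neighbours, and the readthrough gene NME1-NME2 (ENSG00000011052) spans both at chr17:51153590-51171744. NME3 (ENSG00000103024, minus strand, chr16:1770320-1771561) and NME4 (ENSG00000103202, plus strand, chr16:396725-410367) share a chromosome. NME6 (ENSG00000172113, chr3:48290722-48301685) and NME9 (ENSG00000181322, chr3:138261437-138329886) both lie on the minus strand of chromosome 3. NME5 (ENSG00000112981) is at chr5:138115175-138139443 and NME7 (ENSG00000143156) at chr1:169132531-169367948, both on the minus strand.

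The coding sequence around the active-site histidine is shown because it is what the kinases have in common and because it bears on whether reads can be told apart between them. A histidine codon followed by the codons for glycine or alanine, serine, aspartate and serine was searched for in the reference coding sequences and found in 5 members, where each window of 57 bases crosses from 1 coding exon into the next. The histidine codon is in capitals. It is codon 118 in NME1 and NME2, 135 in NME3, 151 in NME4 and 129 in NME6. The windows run from chr17:51161256 to 51161767 for NME1, chr17:51170033 to 51171526 for NME2, chr16:1770727 to 1770897 for NME3, chr16:399723 to 400258 for NME4 and chr3:48294784 to 48295111 for NME6, introns included.
NME1: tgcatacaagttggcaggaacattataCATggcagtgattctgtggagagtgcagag
NME2: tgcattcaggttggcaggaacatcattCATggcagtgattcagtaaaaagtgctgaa
NME3: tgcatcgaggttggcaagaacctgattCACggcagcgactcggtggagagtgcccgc
NME4: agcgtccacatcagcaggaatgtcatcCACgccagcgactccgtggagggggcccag
NME6: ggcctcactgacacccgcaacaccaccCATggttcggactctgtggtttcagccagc
Compared with NME1, the window differed at 10 bases in NME2, 15 in NME3, 20 in NME4 and 30 in NME6.

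NME1 and NME2 are the closest pair. Of the 456 coding bases, 369 (80.9%) are identical, but the longest identical run is 23 bases, and none of the 3460 distinct 31-base words of the NME1 transcripts occurs among the 2508 of NME2. Both share words with the readthrough gene instead, 18.3% of the words of NME1 and 24.1% of those of NME2, and 98.1% of the words of NME1-NME2 occur in another gene. Only reads over the readthrough junction separate it, so the 60 bases around that junction are shown, with NME1 sequence (ending at chr17:51161272) in lower case and NME2 sequence (from chr17:51166827) in capitals.
NME1-NME2: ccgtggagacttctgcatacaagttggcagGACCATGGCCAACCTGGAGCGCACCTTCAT
The split of reads between NME1-NME2 and its neighbours is therefore an estimate. For NME4, 13.4% of the words lie in the overlapping gene DECR2, and for NME6, 7.2% in the pseudogene FCF1P2. NME3 and NME5 shared none.

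Library totals were 195185935 to 260878271 counts. Levels are given below as CPM, counts scaled to a common library total, after TMM scaling over all 24 libraries unless another scale is named. A gene with a count of 0 could still be present at up to 3 counts, which is 0.0115 to 0.0154 CPM (counting error only). SF3B2, the gene carried by one plasmid, was at 24020 to 48710 CPM in the 6 SF3B2 libraries and at 294 to 371 CPM in 17 of the 18 others. The exception was the A549 library labelled scramble replicate 3, at 8743 CPM. Of the HEK293T libraries, eGFP replicate 3 held 871.3 CPM (library scale) of 8 genes typical of A549. SF3B2 replicate 3 of HEK293T came next at 30.4 CPM, and the rest lay at 10.2 to 14.4 CPM. In A549, these genes summed to 15742.5 to 19012.5 CPM. LCN2 was the 1 gene of the list under 1 CPM in every HEK293T library. Genes typical of HEK293T summed to 46.6 to 52.5 CPM in A549, with 4 of 7 under 1 CPM in every library, and to 602.0 to 961.7 CPM in HEK293T. For snaR-A replicate 3 of A549, the labels name both lines in different fields, and its markers were those of A549. In such bulk libraries, a lower share of some cells and less RNA per cell cannot be told apart.

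NME2 was the highest member in both lines per kilobase of exon, followed by NME1 and NME4. In HEK293T, the levels per length were 95.1 ± 10.2 CPM per kb for NME2, 42.4 ± 3 for NME1 and 20.6 ± 3.12 for NME4 (SD over 12 libraries of 4 plasmids). In A549, they were 143 ± 9.17, 65.6 ± 3.8 and 26.7 ± 1.94 CPM per kb. The ranges of these leading members did not overlap within either line. NME1 and NME2 together took 71% to 74.3% of the family's counts in HEK293T and 77.3% to 80.3% in A549.

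The middle of the order was close. In HEK293T, NME3 was at 6.12 ± 1.61 CPM per kb, NME7 at 4.44 ± 0.479 and NME6 at 4.33 ± 0.519, and all 3 ranges overlapped. In A549, NME7 was at 5.06 ± 0.395 CPM per kb, above NME6 at 3.25 ± 0.212 and NME3 at 2.89 ± 0.578, which overlapped each other. NME5 and NME9, the members tied to cilia and to the thioredoxin domain, were lowest, at 0.418 ± 0.0505 and 0.0904 ± 0.0419 CPM per kb in HEK293T and at 0.0107 ± 0.0103 and 0.0119 ± 0.00693 in A549, where their ranges overlapped. The order is plotted per line on a log scale. With the longest transcript as length, NME6 and NME7 changed places in HEK293T and no member did in A549.

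**Figure D1:**
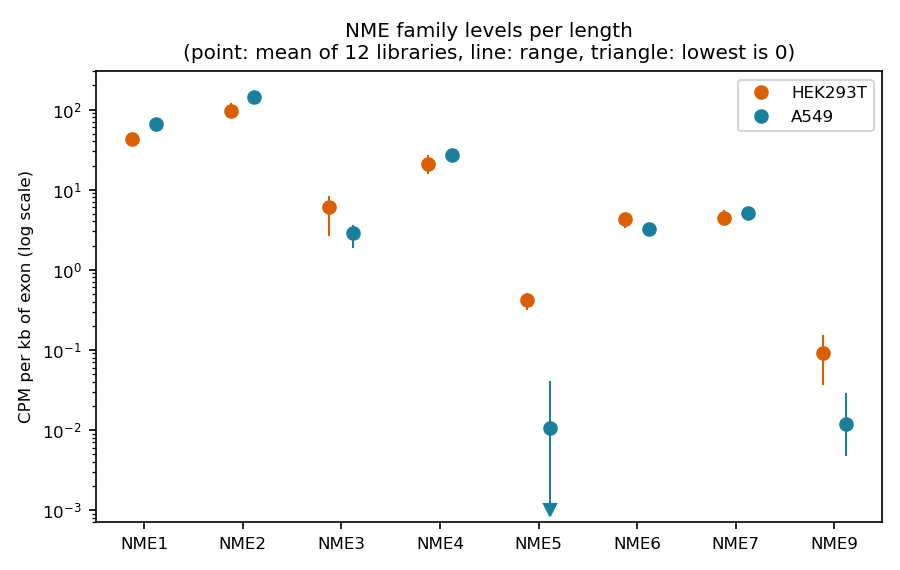
Level of each NME member per kilobase of exon (TMM-scaled CPM per kb, log axis) in HEK293T and A549, with points at means of 12 libraries, lines from the lowest to the highest library and a triangle at a lowest value of 0. NME2 and NME1 stood highest in both lines, and NME5 was at 0.418 CPM per kb in HEK293T and 0.0107 in A549.

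The lines differed in their family profile. On TMM-scaled counts, NME3, NME5, NME6 and NME9 were higher in HEK293T than in A549, and NME1, NME2, NME4 and NME7 were lower. All 8 members passed an adjusted p under 0.05 in edgeR's quasi-likelihood test of the mean of the 4 HEK293T groups against the mean of the 4 A549 groups, where 85.8% of 25923 genes passed (43% higher and 42.8% lower), a share close to that of the members. NME3, NME5 and NME9 were past a log2 fold change of 1, as were 47.3% of genes in either direction. NME5 and NME9 passed the filter on low counts through HEK293T alone, so for these 2 the count is fixed by the line where they are high.

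NME5, the radial spoke gene, differed most. It had 180 to 322 counts per library in HEK293T, with 0.765 CPM in the lowest library, a median of 0.991 and 1.20 in the highest. In A549, it had 61 counts over 12 libraries, was at 0 in 2 of them and reached 17 counts at most. The fitted log2 fold change of HEK293T against A549 was 5.42 (SE 0.27, adjusted p = 1.43e-13), and with so few A549 counts its size depends on the prior count of the fit. NME9 had 34 to 174 counts per library in HEK293T and 4 to 25 in A549, with medians of 0.376 and 0.043 CPM and a log2 fold change of 2.77 (SE 0.22, adjusted p = 2.62e-10). No library of one line reached the range of the other for either gene.

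NME3 was at a median of 8.19 CPM in HEK293T (3.37 to 9.96) and 3.7 CPM in A549 (2.41 to 4.35), with a log2 fold change of 1.04 (SE 0.12, adjusted p = 6.66e-08), and the ranges overlapped only through SF3B2 replicate 1 of HEK293T. NME6 was at a median of 31.8 and 23.9 CPM, a log2 fold change of 0.40 (SE 0.04, adjusted p = 4.71e-09). With scaling by library size alone, these were 1.51 for NME3 and 0.86 for NME6. In the other direction, NME1 was at a median of 146 CPM in HEK293T and 225 CPM in A549 (log2 fold change -0.64, SE 0.04, adjusted p = 1.33e-12), and NME2 at 235 and 347 CPM (-0.60, SE 0.03, adjusted p = 7.23e-13). On the TMM scale, the lowest A549 library lay above the highest HEK293T library for both. On the library-size scale, the ranges of HEK293T and A549 overlapped. They were 129 to 193 and 160 to 212 CPM for NME1, and 224 to 328 and 274 to 346 CPM for NME2.

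NME4 and NME7 differed by less, with log2 fold changes of -0.39 (SE 0.04, adjusted p = 2.27e-08) and -0.20 (SE 0.04, adjusted p = 1.41e-04), and their direction depended on the scaling. The TMM factors were 1.02 to 1.26 in HEK293T and 0.81 to 0.89 in A549, and scaling by library size alone moved the median of all genes from 0.01 to 0.47 and the share of passing genes that were higher in HEK293T from 50.1% to 66.4%. In the 3 scramble libraries of each line alone, NME4 was at -0.08 (adjusted p = 0.318) and NME7 at -0.16 (adjusted p = 0.176), and neither passed. On the library-size scale NME4 was at 0.07 and NME7 at 0.26, 5 members were higher and 2 lower, and NME1 and NME2 remained lower in HEK293T at -0.17 and -0.14. Relative to the median of all genes, NME4 and NME7 lay lower in HEK293T on both scales. Without HEK293T eGFP replicate 3 and A549 scramble replicate 3, all 8 members passed in the same directions.

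The relatives outside the list were low. The dynein-associated gene NME8 had 46 counts over the 12 HEK293T libraries and 50 over the A549 libraries, and the pseudogene NME2P1 had 11 and 10. NME1-NME2 was higher in HEK293T, with a log2 fold change of 0.72 (SE 0.06, adjusted p = 7.85e-10), although the genes it joins were both lower there. It was at 4.84 to 7.9 CPM in HEK293T and 3.32 to 4.9 CPM in A549.

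**Figure D2:**
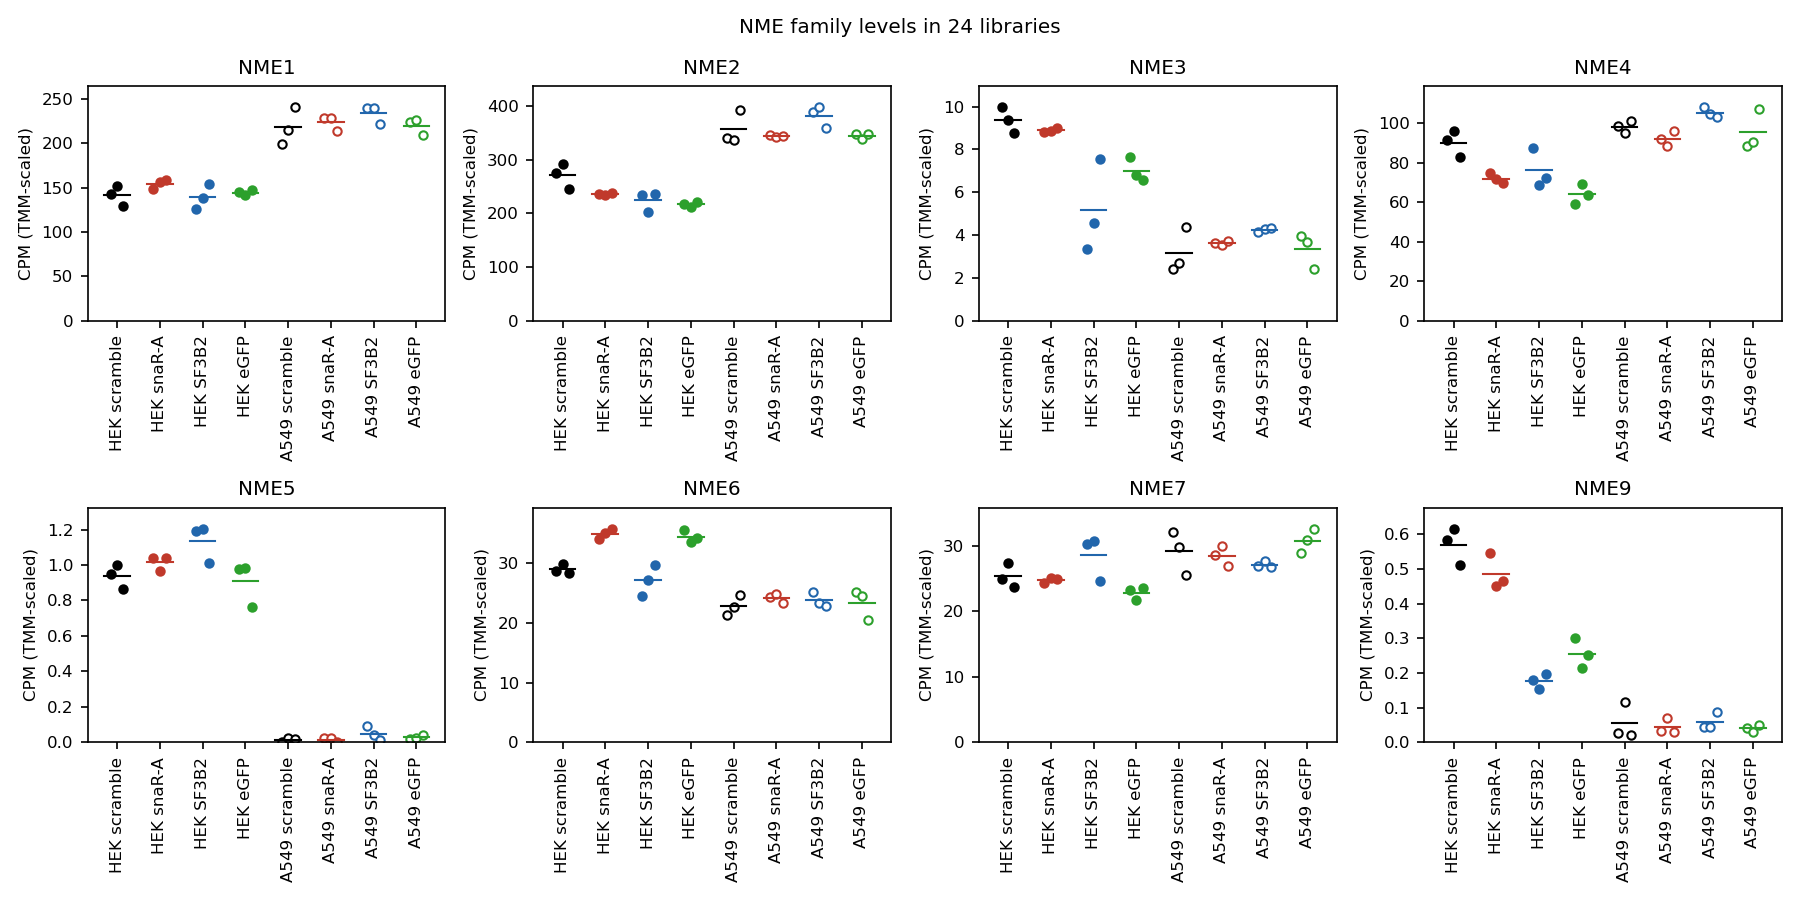
TMM-scaled CPM of each NME member in every library, grouped by line and plasmid (HEK stands for HEK293T, filled points; A549, open points), with a bar at each group mean and axes from 0. In HEK293T, all NME9 libraries with eGFP (mean 0.256 CPM) and SF3B2 (0.177 CPM) lie below all of those with scramble and snaR-A.

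Within HEK293T, some members passed the test against scramble, in shares not far from those of all genes. Within A549 none passed, where few genes of any kind did. The snaR-A comparison asks what overexpression of this RNA does to the mRNAs of the cell. With snaR-A, NME6 rose and NME2 and NME4 fell against scramble, 3 of 8 members passing an adjusted p under 0.05 where 36.3% of 22667 genes did (17.8% higher and 18.5% lower). With eGFP, NME6 rose and NME2, NME3, NME4 and NME9 fell against scramble, 5 of 8 members where 48.8% of 22613 genes passed (22.9% higher and 25.8% lower). With SF3B2, NME3 and NME9 fell against scramble, 2 of 8 members where 34.3% of 22593 genes passed (17.5% lower). The snaR-A, eGFP and SF3B2 comparisons use the same 3 scramble libraries, so their values are not independent of each other.

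SF3B2 against eGFP compares the splicing factor with the control protein on the same backbone. In HEK293T, 0 of 8 members passed edgeR's quasi-likelihood test, where 0.172% of 22623 genes did, while 3 had an unadjusted p under 0.05, DESeq2 called 2 (10.9% of genes with an adjusted p) and edgeR's exactTest called 1 (2.85%). In A549, with NME5 and NME9 below the filter, 0 of 6 members passed in any comparison under the quasi-likelihood test. The share of all genes passing was 0.0185% for snaR-A and 1.49% for eGFP against scramble, with 0 members at an unadjusted p under 0.05 in either, and 0 by DESeq2 or exactTest. The groups did not overlap for 0 of 6 members in both, where 11.8% and 12.3% of genes did not. For SF3B2 against eGFP, 7.02% of genes passed, 2 members had an unadjusted p under 0.05, and DESeq2 called 2 (16.5% of genes with an adjusted p) and exactTest 0. For SF3B2 against scramble, 0.233% passed, 1 member had an unadjusted p under 0.05, and both other tests called 0. There, the groups did not overlap for 1 of 6 members, NME4, where 18.4% of genes did not. Without A549 scramble replicate 3, 4 of 6 members passed that last comparison, NME1 (log2 fold change 0.17), NME2 (0.17) and NME3 (0.74) higher and NME7 (-0.20) lower, and the share of all genes passing rose to 21.9%.

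Scaling by library size alone changed the share of passing genes that was higher in several of these comparisons. It went from 49% to 72.9% for snaR-A and from 47% to 61.6% for eGFP against scramble in HEK293T, and from 23.1% to 7.94% for SF3B2 against eGFP there. That last share rests on 9 higher and 30 lower genes before and 10 and 116 after, so it moved through the lower genes. For SF3B2 against eGFP in A549, it went from 48.7% to 36.2%, and for snaR-A in A549 from 50% of 4 genes to 66.7% of 3, too few to read a balance from. The median log2 fold change of all genes moved from -0.01 to 0.10 for HEK293T eGFP against scramble and from -0.02 to -0.18 for HEK293T SF3B2 against eGFP, and by at most 0.1 in the other 6 comparisons. The calls it changed are given with each member.

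**Figure D3:**
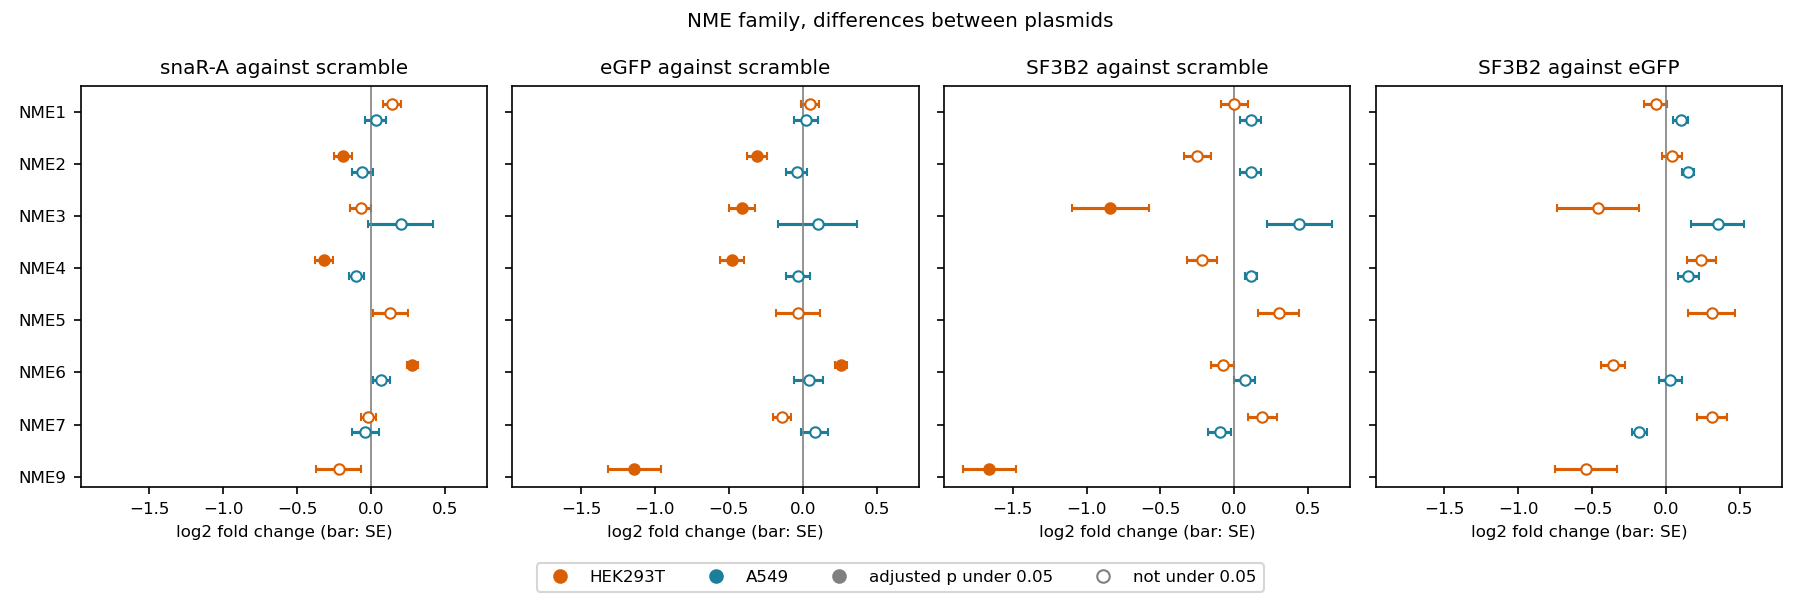
Log2 fold change of each NME member (bars, SE) in 4 comparisons of plasmids, for HEK293T and A549, with filled points at an adjusted p under 0.05. All filled points are in HEK293T, 5 of them in eGFP against scramble, and NME5 and NME9 have no A549 value because they were under the filter on low counts.

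NME2, which is also described as a DNA-binding regulator of MYC, was at 275, 293 and 246 CPM in the HEK293T scramble libraries. It was at 236, 234 and 239 CPM with snaR-A, at 218, 212 and 221 CPM with eGFP, and at 235, 203 and 236 CPM with SF3B2. All 9 libraries of the other plasmids lay below the lowest scramble library, although the margin was small for snaR-A. Groups did not overlap for 3 of 8 members in snaR-A against scramble, where 50% of genes did not, for 6 of 8 in eGFP against scramble (59.2% of genes) and for 4 of 8 in SF3B2 against scramble (50.2%). Against scramble, the log2 fold change was -0.19 with snaR-A (SE 0.06, adjusted p = 0.0361), -0.31 with eGFP (SE 0.07, adjusted p = 0.00727) and -0.25 with SF3B2 (SE 0.09, adjusted p = 0.0625). Of the 6 libraries left out in turn, the snaR-A call was kept only without scramble replicate 3 (-0.14 to -0.25 over the 6, adjusted p from 0.00436 to 0.102), and it was lost on library-size scaling (-0.09, adjusted p = 0.221). The SF3B2 value against scramble passed with DESeq2 (-0.24, adjusted p = 0.0398), with exactTest (adjusted p = 0.0333), on library-size scaling (-0.33, adjusted p = 0.0327) and with all 12 libraries of the line (adjusted p = 0.00655). Against eGFP, its control on the same backbone, NME2 with SF3B2 was at 0.04 (SE 0.07, adjusted p = 0.785), and the groups overlapped.

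NME1 behaved differently from its neighbour. It was at 143, 153 and 129 CPM with scramble, 148, 156 and 159 CPM with snaR-A, 145, 141 and 147 CPM with eGFP and 126, 138 and 154 CPM with SF3B2. The groups overlapped in all 4 HEK293T comparisons. Its log2 fold change was 0.14 with snaR-A (SE 0.06, adjusted p = 0.103), 0.05 with eGFP (SE 0.06, adjusted p = 0.578) and 0.00 with SF3B2 (SE 0.09, adjusted p = 0.994) against scramble. Intervals from these SEs by the normal distribution were 0.02 to 0.25, -0.08 to 0.17 and -0.18 to 0.18 on the TMM scale. They make no allowance for the few libraries behind each SE. They are therefore too narrow as 95% intervals and set no firm limit on the change. On library-size scaling, NME1 with snaR-A passed at 0.24 (adjusted p = 0.00888), and without scramble replicate 2 it passed at 0.19 (adjusted p = 0.0308).

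The counts of NME1 per count of NME2, a quantity that no library scaling can move, were compared after the levels had been seen. This ratio was 0.519, 0.521 and 0.523 in the HEK293T scramble libraries. It was 0.628, 0.667 and 0.664 with snaR-A, 0.666, 0.667 and 0.667 with eGFP, and 0.535, 0.681 and 0.651 with SF3B2. Every other HEK293T library lay above all 3 scramble libraries, which were tight, and SF3B2 replicate 1 lay closest to them. The difference from scramble was 0.132 with snaR-A, 0.146 with eGFP and 0.102 with SF3B2. Each had p = 0.1 in a two-sided exact permutation test, the smallest that 3 against 3 libraries allow, and an adjusted p of 0.267 over 8 comparisons (exact permutation test).

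In A549, the ratio was 0.585, 0.64 and 0.612 with scramble, 0.66, 0.667 and 0.623 with snaR-A, 0.644, 0.667 and 0.603 with eGFP and 0.616, 0.603 and 0.619 with SF3B2. All groups overlapped with scramble, and the exact permutation p was 0.2 to 1 in the 4 A549 comparisons. The A549 values as a whole lay above those of HEK293T scramble. When NME1, NME2 and NME1-NME2 were summed into 1 feature, the log2 fold change in HEK293T was -0.07 with snaR-A (adjusted p = 0.387) and -0.18 with eGFP (adjusted p = 0.0705), so the fall of NME2 did not pass for the locus as a whole. Summed, the locus was still lower in HEK293T than in A549, at -0.60 (SE 0.03, adjusted p = 3.92e-13).

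**Figure D4:**
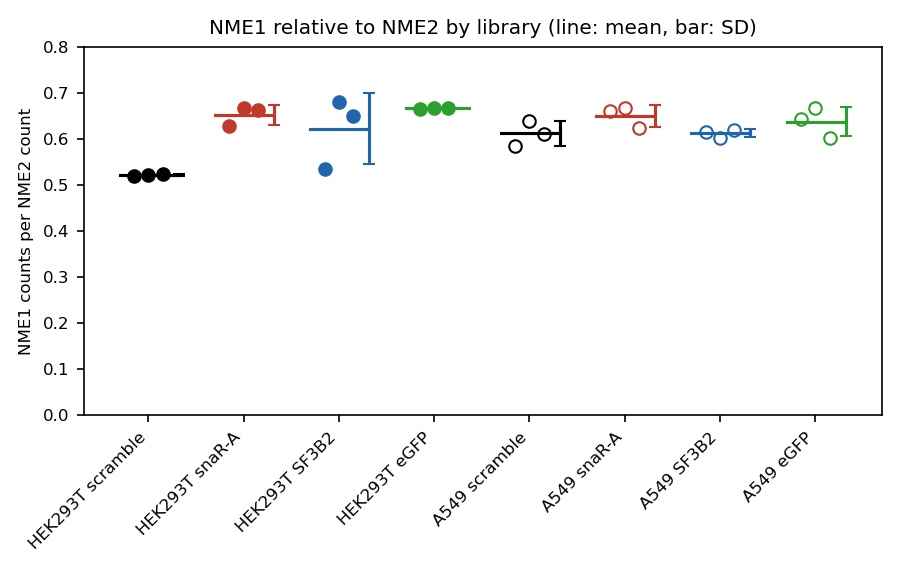
Counts of NME1 per count of NME2 in each library, by line and plasmid (filled, HEK293T; open, A549), with the mean as a line, the SD of 3 libraries as a bar and the axis from 0. The HEK293T scramble libraries lie together at 0.519 to 0.523, below all other libraries.

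In A549, NME1 and NME2 moved little. NME2 was at 340, 336 and 394 CPM with scramble, 347, 342 and 345 CPM with snaR-A, 348, 339 and 347 CPM with eGFP and 390, 398 and 359 CPM with SF3B2. The SF3B2 libraries all lay above the eGFP libraries, with a log2 fold change of 0.15 (SE 0.04, adjusted p = 0.0852), which did not pass. Groups did not overlap for 3 of 6 members in that comparison, where 29.6% of genes did not. NME1 was at 199 to 241 CPM over all A549 libraries, with log2 fold changes of 0.02 to 0.11 in the 4 comparisons.

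Of the mitochondrial members, NME4 fell with snaR-A and with eGFP in HEK293T. It was at 91.5, 96.3 and 82.9 CPM with scramble, 74.6, 71.6 and 69.5 CPM with snaR-A, 59.2, 69.1 and 63.8 CPM with eGFP and 87.6, 68.9 and 72.2 CPM with SF3B2. The snaR-A and eGFP libraries lay below every scramble library, while SF3B2 replicate 1 fell within the scramble range. Against scramble, log2 fold changes were -0.32 with snaR-A (SE 0.06, adjusted p = 0.00331) and -0.48 with eGFP (SE 0.08, adjusted p = 0.00171). With SF3B2, the value was -0.22 (SE 0.10, adjusted p = 0.119), which passed without SF3B2 replicate 1 (-0.32, adjusted p = 0.0135). Against eGFP, NME4 with SF3B2 had the opposite sign, at 0.24 in HEK293T (SE 0.10, adjusted p = 0.239). In A549, SF3B2 against eGFP was at 0.15 (SE 0.07, adjusted p = 0.286), and neither value passed the quasi-likelihood test. The snaR-A and eGFP calls held with each library left out, with ranges of -0.37 to -0.27 and -0.54 to -0.43, and the eGFP value was -0.47 without the library that held A549 markers.

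In A549, this gene was at 98.6, 94.8 and 101 CPM with scramble, 92.1, 88.4 and 96.3 CPM with snaR-A, 88.7, 90.7 and 108 CPM with eGFP and 108, 105 and 103 CPM with SF3B2. Against scramble, the log2 fold changes were -0.10 with snaR-A (SE 0.05, adjusted p = 0.798) and -0.03 with eGFP (SE 0.08, adjusted p = 0.987). The effect of eGFP differed between the lines by -0.51 (HEK293T minus A549, SE 0.12, adjusted p = 0.0108 from the interaction term). It was the 1 member of 8 to pass this test (NME5 and NME9 entered through HEK293T alone), where 26.4% of 24763 genes passed (15.6% lower), and it held without the 2 libraries that stood apart (-0.54, adjusted p = 0.0185). Without them, NME2 (-0.43, adjusted p = 0.0122) and NME3 (-0.84, adjusted p = 0.0379) passed as well, where 27.3% of genes did. For snaR-A against scramble, the difference between the lines in NME4 was -0.21 (SE 0.08, adjusted p = 0.108), and 0 of 8 members passed where 11.4% of 24784 genes did, with 2 at an unadjusted p under 0.05. Without A549 scramble replicate 3, NME3 (-0.58, adjusted p = 0.00553) and NME4 (-0.26, adjusted p = 0.0473) passed, where 16.7% of genes did, and without HEK293T scramble replicate 3 NME4 did (-0.32, adjusted p = 0.0202), where 12.4% did. On library-size scaling, the share of passing genes with the higher effect in HEK293T went from 40.9% to 62% for eGFP and from 58.1% to 68.1% for snaR-A.

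NME6 was the member that rose. In HEK293T, it was at 28.8, 30 and 28.4 CPM with scramble, 34.1, 35.1 and 35.8 CPM with snaR-A, 35.6, 33.6 and 34.3 CPM with eGFP and 24.6, 27.3 and 29.6 CPM with SF3B2. The snaR-A and eGFP libraries lay above all scramble and all SF3B2 libraries. It rose by 0.28 on the log2 scale with snaR-A (SE 0.04, adjusted p = 0.00127) and by 0.26 with eGFP (SE 0.04, adjusted p = 0.00184), and both calls held with each library left out. SF3B2 was close to scramble, at -0.08 (SE 0.08, adjusted p = 0.488). Against eGFP, SF3B2 was at -0.36 (SE 0.08, adjusted p = 0.103), which did not pass here but did with DESeq2 (-0.34, adjusted p = 0.00472), with exactTest (adjusted p = 0.0327) and when all 12 HEK293T libraries entered the fit (adjusted p = 0.0110). In A549, NME6 lay between 20.5 and 25.3 CPM in all 12 libraries and no log2 fold change exceeded 0.07.

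NME3, whose protein acts in mitochondrial fusion, was at 9.96, 9.39 and 8.75 CPM with scramble in HEK293T. It was at 8.81, 8.86 and 8.99 CPM with snaR-A, 7.62, 6.82 and 6.55 CPM with eGFP and 3.37, 4.55 and 7.53 CPM with SF3B2. The eGFP and SF3B2 libraries lay below all scramble libraries, and the SF3B2 group was spread widely. The change was -0.07 (log2) with snaR-A (SE 0.07, adjusted p = 0.474), -0.41 with eGFP (SE 0.09, adjusted p = 0.00716) and -0.84 with SF3B2 (SE 0.26, adjusted p = 0.0419). The SF3B2 call was kept only without SF3B2 replicate 3 when each of the 6 libraries was left out (-1.22 to -0.60, adjusted p from 0.00172 to 0.131), and it was lost on library-size scaling (-0.89, adjusted p = 0.0555). The eGFP call was lost when all 12 libraries entered the fit (-0.41, adjusted p = 0.138).

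Against eGFP, NME3 with SF3B2 was at -0.46 in HEK293T (SE 0.28, adjusted p = 0.364; without SF3B2 replicate 3, -0.81, adjusted p = 0.043) and at 0.35 in A549 (SE 0.18, adjusted p = 0.304). In A549, NME3 was at 2.41, 2.67 and 4.35 CPM with scramble, 3.61, 3.53 and 3.73 CPM with snaR-A, 3.96, 3.68 and 2.42 CPM with eGFP and 4.12, 4.30 and 4.32 CPM with SF3B2. The SF3B2 libraries lay above all eGFP libraries, and scramble replicate 3, the library that carried SF3B2 reads, was the highest of all 12. The difference between the lines was -0.77 (SE 0.37, adjusted p = 0.207), and -1.15 without HEK293T SF3B2 replicate 3 (adjusted p = 0.0203).

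NME7, the γ-tubulin ring member, was compared between SF3B2 and eGFP in each line, and passed in neither. In HEK293T, it was at 30.4, 30.7 and 24.7 CPM with SF3B2 and at 23.4, 21.7 and 23.5 CPM with eGFP. In A549, it was at 27, 27.7 and 26.8 CPM with SF3B2 and at 28.9, 31 and 32.6 CPM with eGFP. Every SF3B2 library lay above every eGFP library in HEK293T and below every eGFP library in A549. For HEK293T, the groups did not overlap for 4 of 8 members in this comparison, where 29.5% of genes did not. As log2 fold changes these were 0.31 in HEK293T (SE 0.10, adjusted p = 0.159) and -0.18 in A549 (SE 0.05, adjusted p = 0.0788). The HEK293T value passed with DESeq2 (0.32, adjusted p = 0.0382), with all 12 libraries of the line (0.32, adjusted p = 0.034) and without SF3B2 replicate 3 (0.43, adjusted p = 0.0346), and the A549 value with DESeq2 (adjusted p = 0.0196). The difference between them was 0.51 (SE 0.11, adjusted p = 0.0305 from the interaction term), 1 of 8 members where 6.1% of 24714 genes passed (3.52% higher). With each of the 12 libraries left out, it was kept without HEK293T SF3B2 replicate 3, HEK293T eGFP replicate 3 or A549 eGFP replicate 1 and lost in the other 9 cases (0.46 to 0.61, adjusted p from 0.00206 to 0.0804). It was also lost on library-size scaling (0.34, adjusted p = 0.0587), where the share of passing genes with the higher effect in HEK293T went from 57.7% to 24%. Against scramble, NME7 was at 0.19 in HEK293T (SE 0.10, adjusted p = 0.171) and -0.10 in A549 (SE 0.08, adjusted p = 0.586) with SF3B2. With eGFP against scramble, it was at -0.14 in HEK293T (SE 0.06, adjusted p = 0.108) and 0.08 in A549 (SE 0.09, adjusted p = 0.979). The HEK293T eGFP libraries lay below all scramble libraries for NME7, in a comparison where groups did not overlap for 59.2% of genes. With snaR-A, NME7 was at -0.02 in HEK293T (SE 0.05, adjusted p = 0.759) and -0.04 in A549 (SE 0.09, adjusted p = 0.941).

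NME3 and NME7 are the members at the ends of base composition, with 68.1% GC in NME3 transcripts and 35.1% in NME7. A GC index was therefore computed for each library, the median level of the 1111 genes of highest GC (at least 60.7%) minus that of the 1111 of lowest GC (at most 37.9%), each relative to the mean of its line. The index was -0.31, -0.22 and 0.02 on the log2 scale in HEK293T SF3B2, 0.04, 0.16 and -0.08 in HEK293T eGFP, 0.14, 0.20 and 0.17 in A549 SF3B2 and -0.07, -0.12 and -0.07 in A549 eGFP. A549 scramble ran from -0.18 to 0.19, the last in replicate 3. Over the 24 libraries with line means removed, Pearson's r with the index was 0.80 for NME3 and -0.84 for NME7, and 0.57 for NME1, 0.51 for NME6, 0.43 for NME2 and 0.10 for NME4. Within the 12 libraries of HEK293T and of A549, r was 0.86 and 0.75 for NME3, -0.84 and -0.86 for NME7, 0.19 and 0.87 for NME2, -0.15 and 0.61 for NME4, 0.51 and 0.65 for NME1 and 0.68 and 0.25 for NME6. The index is made from the same libraries as the levels. The 2 HEK293T SF3B2 libraries with the lowest index had the lowest NME3 and the highest NME7 of HEK293T, and the part of the index in these results was not tested.

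**Figure D5:**
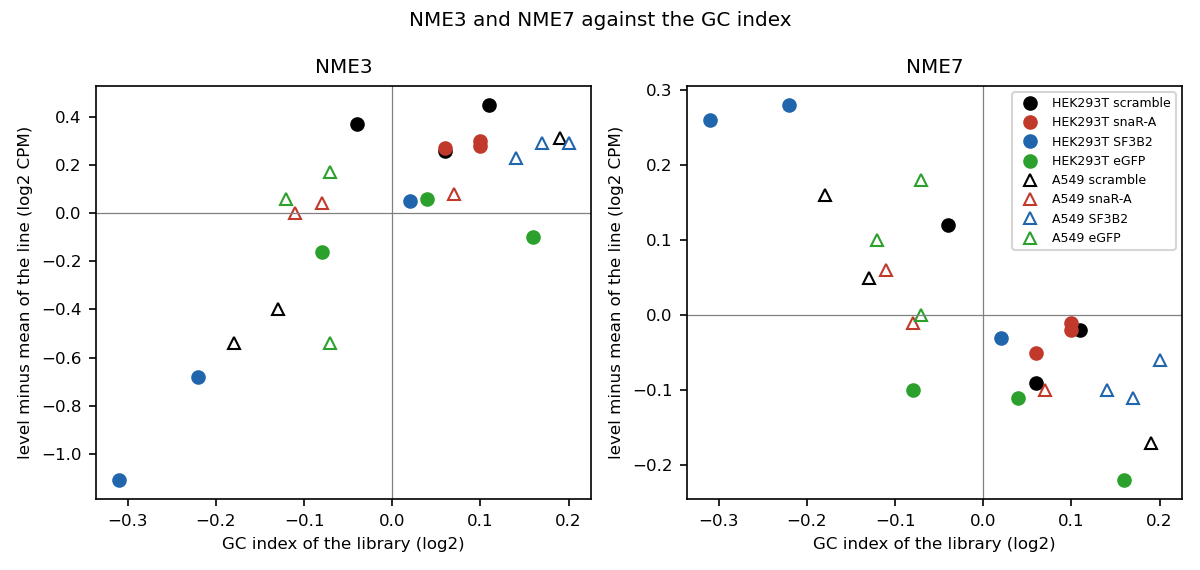
Level of NME3 (left) and NME7 (right) in each library, as log2 CPM minus the mean of its line, against the GC index of the library (log2), with the plasmid as colour, HEK293T as circles and A549 as triangles. NME3 rose with the index (r = 0.80) and NME7 fell (r = -0.84), with HEK293T SF3B2 replicates 1 and 2 at the left end.

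NME9 showed the largest fall of the family. In HEK293T, it was at 0.583, 0.616 and 0.510 CPM with scramble and 0.545, 0.449 and 0.465 CPM with snaR-A, but at 0.302, 0.214 and 0.251 CPM with eGFP and 0.181, 0.154 and 0.197 CPM with SF3B2. The eGFP and SF3B2 libraries lay below all scramble and snaR-A libraries, and the SF3B2 libraries below all eGFP libraries. These levels rest on 124 to 174 counts per library with scramble, 56 to 81 with eGFP and 34 to 55 with SF3B2. NME9 changed by -1.14 against scramble with eGFP (log2 fold change, SE 0.18, adjusted p = 0.00183) and -1.66 with SF3B2 (SE 0.18, adjusted p = 0.00137), so it was the 1 member past a log2 fold change of 1 in each, where 11.1% and 8.01% of genes were past it in either direction. Both calls held with each library left out, at -1.28 to -1.03 and -1.74 to -1.56. With snaR-A, it was -0.22 (SE 0.15, adjusted p = 0.298), and for SF3B2 against eGFP -0.54 (SE 0.21, adjusted p = 0.209).

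NME5 did not follow NME9. In HEK293T, it was at 0.950, 0.998 and 0.864 CPM with scramble, 1.04, 0.966 and 1.04 CPM with snaR-A, 0.980, 0.984 and 0.765 CPM with eGFP and 1.19, 1.20 and 1.01 CPM with SF3B2. The SF3B2 libraries were highest on average and lay above all scramble and all eGFP libraries. In the SF3B2 group, the log2 fold change was 0.30 against scramble (SE 0.14, adjusted p = 0.134) and 0.31 against eGFP (SE 0.16, adjusted p = 0.291), and neither passed. With snaR-A, it was 0.13 (SE 0.12, adjusted p = 0.439), and with eGFP -0.03 (SE 0.15, adjusted p = 0.882). The lowest eGFP library was replicate 3, the one that held A549 markers, and without it the eGFP value was 0.09.

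The members with levels of at least 1 log2 CPM in both lines were set against each other over the 24 libraries, with line means removed, as a description. NME2 and NME4 ran together (r = 0.78), as did NME1 and NME6 (r = 0.72) and NME1 and NME3 (r = 0.69). NME1 and NME2, the adjacent pair, had r = 0.35, NME4 and NME6 had r = -0.60, and NME3 and NME7 had r = -0.69. The points share plasmids and scaling. Among 10876 genes, those most like NME1 in this sense were SAMM50 (r = 0.92), MSRB1 (0.91) and DCTPP1 (0.91), and those most like NME2 were MRPS24, ITM2C and S100A13 (0.93 each). The closest gene was CD151 for NME3 (0.98), COMMD6 for NME4 (0.92), BCS1L for NME6 (0.94) and KLHL8 for NME7 (0.93).

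The other enzymes of nucleotide phosphorylation changed in both directions in HEK293T. Against scramble there, 36.3% of all genes passed with snaR-A, 48.8% with eGFP and 34.3% with SF3B2. In SF3B2 against eGFP, 0.172% passed in HEK293T and 7.02% in A549. Against scramble in A549, 0.0185% passed with snaR-A, 1.49% with eGFP and 0.233% with SF3B2. The counts below, for every list, are to be read against the share of their own comparison. Of 20 nucleotide and nucleoside kinases, 19 were tested, and 4 were higher and 7 lower with snaR-A against scramble, with a median log2 fold change of -0.07 beside -0.01 for all genes. AK8 (0.97) and AK9 (0.45) had the largest rises and AK5 (-0.61) and AK7 (-0.49) the largest falls, all adenylate kinases. With eGFP, 4 were higher and 10 lower (median -0.19), and with SF3B2 against scramble 2 higher and 6 lower (median -0.07), led by the same 4 genes in each. In SF3B2 against eGFP in HEK293T, 0 of 19 passed. In A549, CMPK2, a mitochondrial kinase induced by interferon, was the 1 kinase to rise with eGFP against scramble (log2 fold change of 4) and with SF3B2 against scramble (1.43), and it fell in SF3B2 against eGFP (-2.57), where UCK1 rose (0.24). None of the 19 passed with snaR-A in A549.

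Of 13 genes of dNTP supply, 4 were higher and 2 lower with snaR-A in HEK293T, with DCTPP1 (0.29) and RRM2B (0.29) the largest rises and RRM2 (-0.22) and DUT (-0.15) the falls. With eGFP, 3 were higher and 4 lower, and with SF3B2 against scramble 2 were higher and 0 lower, RRM2B (0.44) and SAMHD1 (0.33). RRM2B encodes a small subunit of ribonucleotide reductase and RRM2 its S-phase counterpart. In A549, SAMHD1, a dNTP hydrolase, rose with eGFP (1.87) and with SF3B2 (0.50) against scramble and fell in SF3B2 against eGFP (-1.38), where DCTPP1 rose (0.24). Of the partners described for NME1, none of 5 tested passed with snaR-A or SF3B2 against scramble in HEK293T, and PRUNE1 fell with eGFP (-0.29). TREX1 rose with eGFP in A549 (1.55) and fell in SF3B2 against eGFP there (-0.78).

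The partners of single members gave other counts. Of 11 γ-tubulin ring genes, the complex of NME7, 0 were higher and 3 lower with snaR-A, 0 and 6 with eGFP and 0 and 5 with SF3B2 against scramble in HEK293T, with medians of -0.07, -0.13 and -0.16. TUBGCP3 (-0.33) and NEDD1 (-0.23) led with snaR-A, MZT2A (-0.48) and MZT1 (-0.44) with eGFP, and MZT2B (-0.85) and MZT2A (-0.62) with SF3B2. In A549, MZT2B rose in SF3B2 against eGFP (0.61) and no other gene of this list passed. Of 10 motile cilium genes, 6 rose and 0 fell with snaR-A, 4 rose and 3 fell with eGFP, and 5 rose and 0 fell with SF3B2 against scramble in HEK293T. The radial spoke gene RSPH4A, at 0.93 CPM with scramble, rose by 1.29, 1.88 and 1.62 in these (log2). FOXJ1, the regulator of ciliogenesis, had 6, 9 and 2 counts in the scramble libraries and passed the filter on low counts through the other plasmids, with 36 to 43 counts per library with snaR-A, 72 to 122 with eGFP and 37 to 45 with SF3B2. It passed the test in all 3, and no fold is given over so few control counts. With eGFP, RSPH14 (-0.95) and SPAG16 (-0.22) fell. None of the 8 or 9 cilium genes tested in A549 passed. Of 8 genes of mitochondrial dynamics, 1 rose and 3 fell with snaR-A and with eGFP, and 0 rose and 1 fell with SF3B2 against scramble in HEK293T. PLD6 rose (0.30 with snaR-A, 0.24 with eGFP), and MFF (-0.23 and -0.34) and OPA1 (-0.21 and -0.22) fell. In A549, PLD6 rose in SF3B2 against eGFP (0.28), the 1 gene of this list to pass there.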

How the data were processed

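RNA-seq libraries were stranded, rRNA-depleted and poly(A)-enriched. The authors trimmed reads with TrimGalore 0.6.5 and quantified transcripts with Salmon 1.5.2, and deposited expected counts per Ensembl gene, not scaled between libraries. The transcriptome release and the tool that summed transcripts are not given in the sources used here. Of the values, 51% were not whole, and all were rounded (0.034% became 0). The rounding and the split of shared reads limit the precision of low or overlapping genes, and intervals cover the spread between replicates.

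Libraries were grouped by line and plasmid from the labels. Each of 8 comparisons of 3 against 3 libraries was filtered with filterByExpr, normalized by TMM and tested over all genes with edgeR 4.0.16 (limma 3.58.1, R 4.3.3), quasi-likelihood F-test, Benjamini-Hochberg adjustment, threshold 0.05. SE is the standard error of the log2 fold change. Differences between lines used interaction terms over 12 libraries, and HEK293T against A549 all 24. Alternatives were DESeq2 1.42.0, exactTest, scaling by library size, no filter, all 12 libraries of a line, a replicate block, each library left out, the scramble libraries alone for the lines, NME1, NME2 and NME1-NME2 summed, and transcript length. Steps were tested on simulated data. Correlations used log2 CPM with a prior count of 2. Python 3.11.15, pandas 2.3.3, numpy 2.4.6 and matplotlib 3.10.9 made tables and figures. Annotation was GENCODE 44 on GRCh38, with words of 31 bases. Of the IDs, 54903 had a symbol.

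Members, lists and tests were chosen with earlier results of these data known. Every member above the filter on low counts was tested in every comparison, and some values that did not pass are not printed. From each list, up to 2 genes that passed and changed most were named per direction and comparison, and 3 or 1 most correlated genes per member. No replicates were copies, since the variance between any pair was 16.6 times that of Poisson counting or more.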

Additional observations from a re-analysis of the deposited data

Results flagged for a closer look

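In 2 members, the effect of a plasmid differed between the lines by the interaction term in edgeR. NME4 in eGFP against scramble differed by -0.51 (HEK293T minus A549, log2), with -0.48 in HEK293T and -0.03 in A549. NME7 in SF3B2 against eGFP differed by 0.51, with 0.31 in HEK293T and -0.18 in A549, and its adjusted p of 0.0305 rose above 0.05 without any 1 of 9 of the 12 libraries and on library-size scaling. Neither value of NME7 passed in its own line.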

How the results depend on the processing

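Of 488 values of single members under settings other than leaving out 1 library, 443 kept their direction and side of the threshold, 10 no longer passed, 16 passed newly and 19 changed sign. Among these settings are the fits without the pair that stood apart and, for HEK293T against A549, the scramble libraries alone. The 488 values include the summed locus, set against NME1 and again against NME2. The number of members passing changed by over 1.5 times in few cases. In HEK293T SF3B2 against eGFP it was 0 (0.172% of all genes), and 2 with DESeq2 (10.9%), 1 with exactTest (2.85%) and 2 with all 12 libraries (8.69%). In HEK293T SF3B2 against scramble it was 2 (34.3%), and 4 with all 12 libraries (41.6%). In A549 SF3B2 against eGFP it was 0 (7.02%), and 2 with DESeq2 (16.5%). For the eGFP effect between lines it was 1 (26.4%), and 3 without both libraries that stood apart (27.3%), a setting chosen after seeing the data. For the SF3B2 effect between lines it was 1 (6.1%), and 0 on library-size scaling (4.92%) and 0 with the replicate block (1.63%). The block changed 1 further call, NME2 in HEK293T snaR-A against scramble (adjusted p = 0.0645). The deviations of libraries with the same replicate number had a median r of -0.00885 in HEK293T (-0.0628 to 0.0834) and -0.0105 in A549 (-0.296 to 0.222), over 18 pairs each. They were closest to their own number in 3 and 4 of 12 libraries. No pairing by number was seen in this check, which cannot exclude one. Whether a shared batch lies behind the lost calls was not tested. With 1 library left out, the number ranged from 0 to 3 in HEK293T SF3B2 against eGFP, 1 to 3 in HEK293T SF3B2 against scramble, 0 to 1 in A549 SF3B2 against eGFP, 0 to 4 in A549 SF3B2 against scramble, 0 to 2, 1 to 3 and 0 to 3 for the snaR-A, eGFP and SF3B2 effects between lines, 2 to 3 in HEK293T snaR-A against scramble, and stayed at 5 in HEK293T eGFP against scramble, 8 between lines and 0 in the remaining A549 comparisons. Counts above the full set came without HEK293T SF3B2 replicate 3 (3 against eGFP, where 8.09% of all genes passed, 3 against scramble, 38.8%, and 3 in the SF3B2 effect between lines, 17.9%), A549 scramble replicate 3 (4 in A549 SF3B2 against scramble, 21.9%, and 2 and 3 in the snaR-A and eGFP effects, 16.7% and 26.3%), A549 eGFP replicate 3 (NME4 in A549 SF3B2 against eGFP, 0.24, where 14.7% passed), HEK293T scramble replicate 3 (1 and 2 in the snaR-A and eGFP effects, 12.4% and 24.6%), HEK293T eGFP replicate 3 (2 in the eGFP effect, 25.5%) and A549 scramble replicate 2 (2 in the eGFP effect, 20.6%, of which NME9, with 4 to 25 counts per A549 library, is below the filter in A549 and is not read as a difference). Against scramble, HEK293T SF3B2 called 1 member without scramble replicate 1, 2 or 3 or SF3B2 replicate 2, where 16.8% to 25.5% of genes passed.

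The sign changes concerned values near 0 or without a call, apart from the line comparison. On library-size scaling, NME3 (0.03) and NME7 (0.08) in HEK293T snaR-A against scramble, NME5 (0.08) in HEK293T eGFP against scramble, NME2 (-0.12) in HEK293T SF3B2 against eGFP, NME2 (0.01) and NME7 (0.03) in A549 snaR-A against scramble, NME1 (0.11) in the eGFP effect and NME4 (-0.06) in the SF3B2 effect between lines, and NME4 (0.07) and NME7 (0.26) in HEK293T against A549 changed sign, and the median of all genes moved with them. The sum of NME1, NME2 and NME1-NME2 was set against each of the first 2 genes. It was at -0.07 with snaR-A and -0.18 with eGFP in HEK293T, where NME1 alone was at 0.14 and 0.05. The sum was also at -0.02 with each in A549 and -0.04 in the snaR-A effect between lines, where NME1 alone was above 0. In HEK293T SF3B2 against eGFP, the sum was at 0.00 and NME2 alone at 0.04. These signs are those of the sum, which holds the counts of NME2, and not of NME1. DESeq2 gave NME1 at 0.01 in HEK293T SF3B2 against scramble, no filter gave NME7 at -0.01 and the block NME9 at -0.01 in the snaR-A effect between lines. The cause was not tested.

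With 1 library left out, values of members without a call that changed sign ranged as follows. NME1 ran from -0.02 to 0.09 in HEK293T eGFP, -0.12 to 0.00 in HEK293T SF3B2 against eGFP, -0.08 to 0.08 in HEK293T SF3B2 against scramble, -0.03 to 0.11 in A549 snaR-A, -0.04 to 0.09 in A549 eGFP, and 0.00 to 0.15 and -0.10 to 0.08 in the snaR-A and eGFP effects between lines. NME2 ran from -0.11 to 0.02 in A549 snaR-A and -0.09 to 0.03 in A549 eGFP. NME3 and NME4 ran from -0.05 to 0.40 and -0.13 to 0.02 in A549 eGFP. NME5 ran from -0.09 to 0.09 in HEK293T eGFP, and -0.82 to 0.44 and -0.98 to 0.36 in the snaR-A and SF3B2 effects between lines. NME6 ran from -0.14 to 0.00 in HEK293T SF3B2 against scramble, -0.02 to 0.13 in A549 eGFP and -0.06 to 0.09 in A549 SF3B2 against eGFP. NME7 ran from -0.07 to 0.03 in HEK293T snaR-A, -0.13 to 0.04 in A549 snaR-A, -0.01 to 0.17 in A549 eGFP and -0.07 to 0.09 in the snaR-A effect between lines, and NME9 from -1.10 to 0.63 in that effect. With the longest transcript as length, levels in HEK293T and A549 were 88.1 and 136 CPM per kb for NME1, 274 and 412 for NME2, 40.6 and 52.6 for NME4, 0.827 and 0.0212 for NME5, 6.58 and 4.94 for NME6, 5.91 and 6.73 for NME7 and 0.173 and 0.0227 for NME9, and NME3 was at 3.54 in A549. Counts of NME5 and NME9 limit what can be seen in A549.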
